A study of Mus musculus with 28 samples.

Results

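Miat, Myt1, Myt1l, St18, Scrt1 and Scrt2 are 6 of the 19421 genes in the table of normalized counts (reads assigned to a gene, scaled between libraries by the authors), and 6 of these 6 passed the filter on low values (at least 10 normalized counts in at least 2 of the 28 libraries), which kept 16837 genes. They comprise 1 long noncoding RNA, the 3 genes of the Myt1 family and the 2 Scratch genes. Miat and Myt1 were chosen by their large rises of Dox over No Dox in these same libraries, so their changes are given as a description with no test. Myt1l, St18, Scrt1 and Scrt2 were taken as the relatives of Myt1 and as the Scratch pair, with earlier results of these data known, and were tested.

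Miat (also known as Gomafu) is a long noncoding RNA that stays in the nucleus and is abundant in neurons. It carries repeats of the branch point sequence of introns, to which the splicing factor SF1 binds. Myt1, Myt1l and St18 are transcription factors with CCHC zinc fingers that recruit Sin3 and histone deacetylases. Myt1 promotes neuronal differentiation by repressing genes of the Notch pathway, and Myt1l is used in the conversion of fibroblasts to neurons. Scrt1 and Scrt2 are zinc finger repressors of the Snail superfamily, found mainly in newborn neurons. They begin with a SNAG domain, a short stretch that binds the demethylase Kdm1a and its CoREST partners, as does Gfi1, one of the factors induced here.

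The libraries were made from 7 mouse embryonic stem cell lines with the A2loxCre parent, each carrying a doxycycline (Dox) inducible cassette that ends in the reporter mVenus. iAtoh1 carries Atoh1, a proneural bHLH factor needed for hair cells of the inner ear. iGfi1 carries Gfi1, a zinc finger repressor, and iPou4f3 carries Pou4f3, a POU domain factor, both needed for the survival of hair cells. iG+A, iG+P and iP+A carry pairs of them in 1 polycistronic cassette, and iGPA carries all 3. Atoh1 has a Flag tag and Pou4f3 a Myc tag in every cassette that holds them. Cells were grown as embryoid bodies (EBs) in serum without LIF, and Dox at 2 µg/ml was present for 48 h from day 4 to day 6. Dox libraries hold the sorted mVenus+ cells of day 6, whereas No Dox libraries hold whole, unsorted EBs of the same day, so the effect of the factors and that of sorting cannot be told apart. Each of the 14 groups has 2 replicates, which are different clones of 1 line, and p-values measure the spread between these. In bulk RNA, fewer cells of a type and less RNA per cell cannot be told apart either.

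Estimated depth was 30.3 to 48.0 M reads per library, and 30.3 to 43.9 M with Dox. The induced genes followed their labels. Pou4f3 was at 4694 to 19883 normalized counts in the 8 Dox libraries with Pou4f3 in the cassette, and at 27.7 to 101 in the other 6 Dox libraries. Atoh1 was at 12816 to 21242 against 14.3 to 32.5, and Gfi1 at 8119 to 12487 against 49.7 to 113. As for the makeup of the cells, 7 of 8 general neuronal markers rose in iP+A, 6 of 8 in iGPA and 3 of 8 in iAtoh1, where 1 fell. Of 6 hair cell markers, 4 rose in iGPA, 2 in iP+A and 0 in iAtoh1 (limma, where 1 was higher at an unadjusted p under 0.05). Fibroblast and mesoderm markers fell, 6 of 6 in iGPA, 3 in iAtoh1 and 1 in iP+A. Of 6 blood markers, 4 fell in iP+A, 4 in iAtoh1 and 3 in iGPA, and of 5 pluripotency markers 4 fell in iP+A, 3 in iGPA and 0 in iAtoh1 (limma, where 4 were lower at an unadjusted p under 0.05). Of 4 endothelial markers 2 fell in iAtoh1 and 1 in both iP+A and iGPA, and 1 of 4 neural progenitor markers rose in each of the 3 lines. Of 3 endoderm and endocrine markers 0 passed the limma threshold in these lines, with 1 lower in iAtoh1 and 0 in iP+A and iGPA at an unadjusted p under 0.05. Over all genes, 2.89% rose and 2.52% fell in iAtoh1, 4.70% and 2.58% in iP+A, and 8.65% and 5.31% in iGPA.

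The repeat of Miat is shown since it is the part of this RNA with a known binding partner. Miat lies on chromosome 5, at chr5:112642248-112657968 on the minus strand (NCBIM37, the mm9 build), and GENCODE M1 annotates it as a lincRNA with 7 exon blocks of 8760 bases. The stretch below is part of its most 3′ exon, chr5:112645683-112645922, printed 5′ to 3′ along the transcript as DNA, with capitals marking the motif TACTAAC.
Miat: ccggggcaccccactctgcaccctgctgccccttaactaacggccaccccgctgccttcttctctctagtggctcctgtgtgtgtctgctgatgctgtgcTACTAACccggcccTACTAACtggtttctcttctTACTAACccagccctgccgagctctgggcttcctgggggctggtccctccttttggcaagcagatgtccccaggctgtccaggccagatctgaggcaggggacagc
The 240 bases hold 3 of the 6 matches in the exons of Miat, searched along the transcribed strand. That is 0.68 matches per kb, against 0.029 per kb over the exons of all 1273 lincRNA genes of the annotation. At least 1 match was present in 5.81% of these genes, and the highest number in any other of them was 4.

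The start of the coding sequence of both Scratch genes encodes the SNAG domain. It is set beside the same bases of Snai2, a relative in the Snail family, and Insm1, another neuronal zinc finger gene that is described later. The first 27 coding bases from GENCODE M1 transcripts follow, with capitals marking the 16 positions at which these 4 genes have the same base.
Scrt1: ATGCCcaGgtccTTcCTGGTtAAGaag
Scrt2: ATGCCgcGttccTTcCTGGTgAAGaag
Snai2: ATGCCgcGctccTTcCTGGTcAAGaaa
Insm1: ATGCCccGcgggTTtCTGGTgAAGcgc
Scrt1 (chr15:76346633-76352559, minus strand) and Scrt2 (chr2:151907265-151921538, plus strand) each have 2 exon blocks in NCBIM37, with coding sequences of 1047 and 936 bases. The Myt1 family genes are longer and have more exons. Myt1 lies at chr2:181498037-181562502 with 24 exon blocks, Myt1l at chr12:30213249-30608074 with 28 and St18 at chr1:6477312-6851021 with 29, all 3 on the plus strand. No other gene of the annotation overlaps any of the 6.

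Without Dox all 6 genes were low. Over the 14 No Dox libraries, Miat ran from 4.64 to 80.1 normalized counts with a median of 25.6. Myt1 ran from 1.27 to 12.2, Myt1l from 2.11 to 33.2, St18 from 6.64 to 27.8, Scrt1 from 2.05 to 10.8 and Scrt2 from 1.16 to 11.03. These values set the background for the changes that follow, and at such levels the few reads of a library limit the precision.

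**Figure D1:**
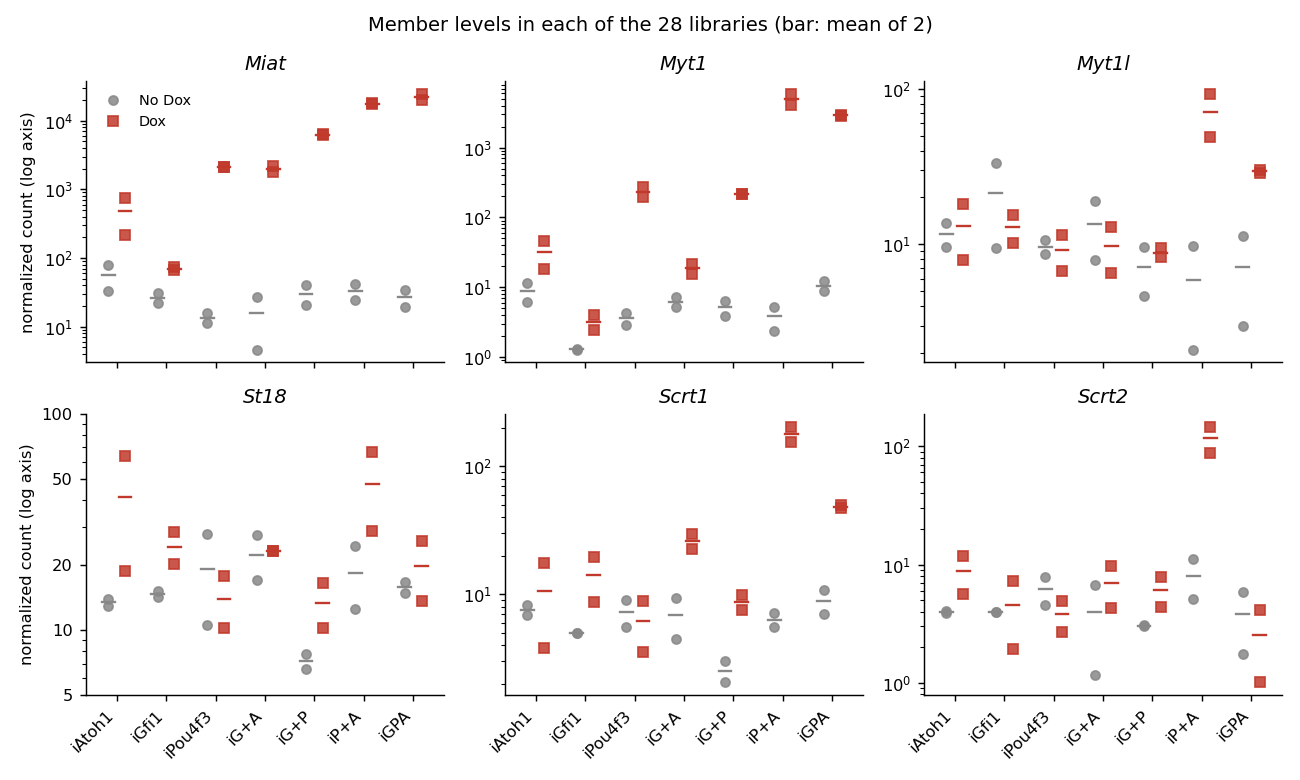
Normalized counts of the 6 genes in each of the 28 libraries, by line (x axis), on a log axis (y axis), with grey circles for No Dox, red squares for Dox and a bar at the mean of 2. In iP+A and iGPA with Dox, Miat lies between 17233 and 24585 and Myt1 between 2807 and 5899.9, whereas St18 stays between 6.64 and 66.2 in every library.

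Miat was higher with Dox in all 7 lines, least so with Gfi1 alone. With Atoh1 alone its 2 Dox libraries were at 743 and 218 normalized counts, against 80.1 and 32.6 without Dox, and with Gfi1 alone they were at 66.7 and 73.2 against 31.0 and 22.0. With Pou4f3 alone they were at 2105 and 2129.9 against 11.3 and 15.6. In each of the 7 lines both Dox libraries were above both No Dox libraries, but the iGfi1 Dox libraries were within the range of untreated iAtoh1 EBs. Of the pairs, iP+A and iG+P were above all 3 single factors and iG+A was not. Miat was at 18064 and 17233 in iP+A against 24.4 and 41.4, at 6098 and 6438 in iG+P against 20.4 and 40.1, and at 1779 and 2180.4 in iG+A against 4.64 and 26.9. With all 3 factors, in iGPA, it was at 24585 and 20132 against 34.1 and 19.7. The order of the Dox levels was therefore iGPA, iP+A, iG+P, iPou4f3, iG+A, iAtoh1 and iGfi1, and of these neighbours only iPou4f3 and iG+A overlapped.

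On the scale of log2(normalized count + 1), which understates changes of low genes, the Dox effect on Miat was 1.39 in iGfi1 and 2.95 in iAtoh1. It was 9.69 in iGPA, 9.07 in iP+A, 7.72 in iG+P and 7.30 in iG+A, and with Pou4f3 alone 7.21, each with a standard error (SE) of 0.60. Among the 16837 genes kept, Miat had the third largest rise in iGPA, the fourth in both iP+A and iPou4f3, the 8th in iG+P and the 17th in iG+A. In iAtoh1 it ranked 138 and in iGfi1 596. Such ranks are where the choice of Miat came from.

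Myt1, the first of its family, followed another order. With Dox it was at 45.4 and 18.1 normalized counts in iAtoh1 against 6.22 and 11.4, and at 2.46 and 3.94 in iGfi1 against 1.29 and 1.27. In iPou4f3 it was at 193.6 and 269.7 against 4.31 and 2.84. Both Dox libraries were above both No Dox libraries in these lines, by the most with Pou4f3. In iGfi1, however, Myt1 with Dox stayed within its range of 1.27 to 12.2 over all untreated libraries. In iG+A it was at 21.7 and 15.6 against 5.21 and 7.21, and in iG+P at 217 and 219 against 3.90 and 6.38. In iP+A it was at 5899.9 and 4037 against 5.27 and 2.36, and in iGPA at 2969.7 and 2807 against 12.2 and 8.76. iP+A was thus above iGPA without overlap, and iPou4f3 and iG+P overlapped each other, as did iAtoh1 and iG+A.

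The Dox effect on Myt1 was 10.06 on the log2 scale in iP+A, the largest rise of all 16837 genes there, and 7.99 in iGPA, with an SE of 0.43 throughout. It was 5.67 in iPou4f3, where Myt1 ranked 12, and 5.19 in iG+P, where it ranked 52. In iAtoh1, iG+A and iGfi1 it was 1.65, 1.44 and 0.86. Miat and Myt1 thus came apart in iG+A, where the Dox effect was 7.30 on Miat and 1.44 on Myt1. Over the 28 libraries the log2 levels of both genes had a Pearson correlation of 0.91, and of 0.92 over the 14 Dox libraries, which share lines, clones and normalization. Both genes were chosen for large rises in these same libraries, and that choice favours a high correlation.

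Myt1l, the second member of the family, changed in fewer lines. In iP+A its Dox libraries were at 92.6 and 48.8 normalized counts against 9.75 and 2.11, and in iGPA at 30.2 and 28.8 against 11.3 and 3.00. In both lines the groups did not overlap. In the other 5 lines Myt1l was between 6.52 and 18.2 with Dox and between 4.68 and 33.2 without, and the highest untreated library, of iGfi1, was above both iGPA Dox libraries. St18, the third member, was at 66.2 and 28.8 in iP+A against 12.5 and 24.4, and at 63.8 and 18.8 in iAtoh1 against 12.96 and 13.9. These are the only lines in which a St18 library exceeded 30 normalized counts, and in both the 2 Dox clones differed widely. In iGPA St18 was at 13.6 and 25.8 against 14.9 and 16.7, and these groups overlapped.

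Scrt1 rose with Dox in 3 lines, all of them with Atoh1 in a combination. In iP+A it was at 204 and 154 normalized counts against 7.13 and 5.51, in iGPA at 47.1 and 49.4 against 6.99 and 10.8, and in iG+A at 22.3 and 29.3 against 9.28 and 4.48. The Dox libraries lay above the untreated ones in each. In iG+P it was at 9.82 and 7.58 against 2.05 and 3.01, and in iGfi1 at 8.70 and 19.6 against 5.00 and 5.00, again without overlap. Of these 4 Dox libraries only the 1 at 19.6 exceeded the untreated maximum of 10.8. In iAtoh1 it was at 17.4 and 3.78 against 6.84 and 8.16, and in iPou4f3 at 3.56 and 8.80 against 9.03 and 5.58. With either factor alone, the Dox and No Dox libraries overlapped.

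Scrt2 stood out in 1 line. In iP+A it was at 147 and 88.5 normalized counts against 5.09 and 11.03. In the 12 other Dox libraries it was between 1.01 and 11.9, within or near the untreated range of 1.16 to 11.03. In iGPA, which adds Gfi1 to the same pair, it was at 4.10 and 1.01 against 1.75 and 5.90, the lowest mean of all 14 groups.

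**Figure D2:**
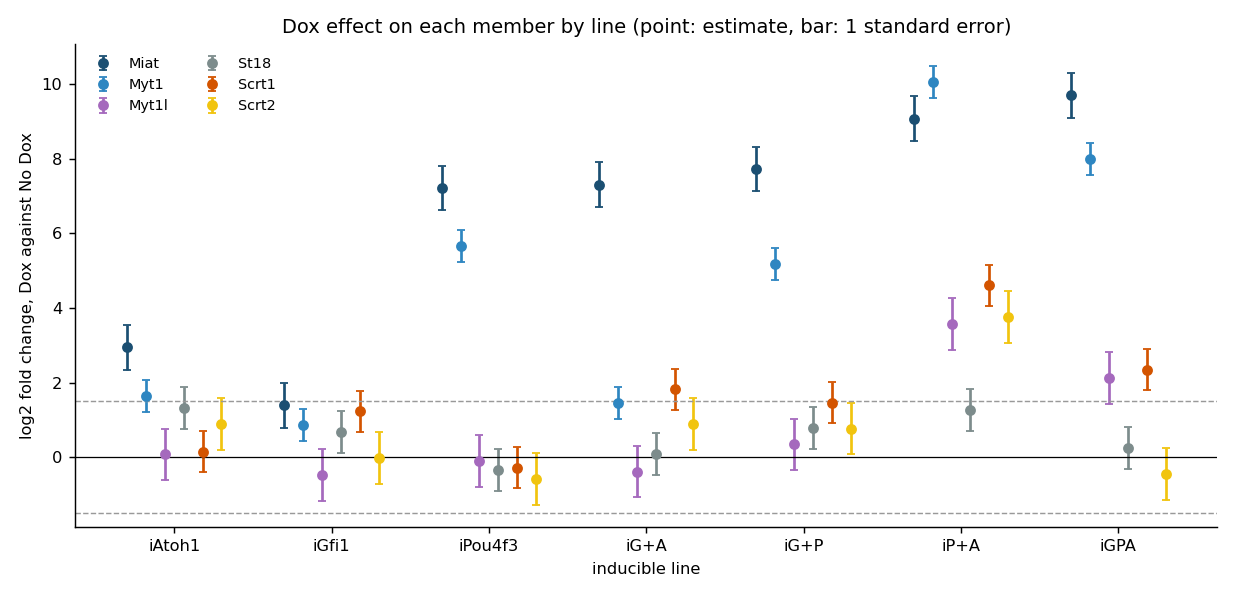
Log2 fold change of Dox against No Dox (y axis) for the 6 genes in each line (x axis), with bars of 1 SE and dashed lines at a log2 fold change of 1.5 in either direction. Miat and Myt1 lie far above the others in iPou4f3, iG+P, iP+A and iGPA, and in iP+A Myt1l, Scrt1 and Scrt2 lie above 3 as well.

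A gene was called changed when it had moved by 1.5 or more on the log2 scale, up or down, and its adjusted p was below 0.05, in a limma fit over all 28 libraries with adjustment over all 16837 genes. In iP+A 3 of the 4 tested genes rose, where 4.70% of all genes rose. Scrt1 rose by 4.61 on the log2 scale (SE 0.55, adjusted p = 5.91e-06), Scrt2 by 3.75 (SE 0.69, adjusted p = 0.000618) and Myt1l by 3.56 (SE 0.69, adjusted p = 0.000935). St18 had a log2 fold change of 1.27 in this line (SE 0.56, adjusted p = 0.106), and 1.51 (adjusted p = 0.0104) when all 14 untreated libraries served as the control. iP+A and iGPA were also the lines with the highest neuronal marker levels. The summed level of the 8 general neuronal markers was 16965 to 22846 normalized counts in iP+A Dox and 6379 to 6573 in iGPA Dox, and 800.3 to 2847 in the Dox libraries of the other 5 lines. The part of such cells in the rises of Scrt1, Scrt2, Myt1l, Miat and Myt1 was not tested.

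In iGPA 2 of the 4 rose, against 8.65% of all genes. They were Scrt1 by 2.34 (SE 0.55, adjusted p = 0.00194) and Myt1l by 2.12 (SE 0.69, adjusted p = 0.0178). The rise of Myt1l was lost on leaving out the second No Dox library (1.31, adjusted p = 0.225), the first Dox library (2.08, adjusted p = 0.0725) or the second (2.15, adjusted p = 0.0617). St18 and Scrt2 had log2 fold changes of 0.23 (adjusted p = 0.763) and -0.44 (adjusted p = 0.635). In iG+A 1 of the 4 rose, Scrt1 by 1.82 (SE 0.55, adjusted p = 0.0129), where 7.35% of all genes rose and 4.95% fell. In the same line 3 of 8 neuronal, 3 of 6 hair cell and 2 of 4 neural progenitor markers rose, and 4 of 6 fibroblast and mesoderm, 4 of 6 blood and 3 of 5 pluripotency markers and 1 neuronal marker fell, and their part in the rise of Scrt1 was not tested. The call of Scrt1 was lost without the second No Dox library (1.37, adjusted p = 0.121) or the second Dox library (1.64, adjusted p = 0.0744).

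In the remaining lines 0 of the 4 passed the threshold of the limma test, where 5.40% of all genes rose or fell in iAtoh1, 4.82% in iGfi1, 2.08% in iPou4f3 and 10.5% in iG+P. At an unadjusted p under 0.05 there was 1 gene in iAtoh1 (St18, log2 fold change 1.31), 1 in iGfi1 (Scrt1, 1.23), 1 in iG+P (Scrt1, 1.46) and 0 in iPou4f3. In iG+P Scrt1 had an adjusted p of 0.0477 but stayed under the fold limit. In iAtoh1 the adjusted p of St18 was 0.0996, and without the second Dox library, the lower of the pair, its log2 fold change was 2.17 (adjusted p = 0.0239).

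Levels of different genes can be set side by side only per length, here as normalized counts per kb of annotated exon. In iP+A Dox cells Miat was at 2015 ± 67.1 per kb (SD, n = 2), Myt1 at 719.5 ± 190.8, Scrt1 at 44.6 ± 8.80, Scrt2 at 34.6 ± 12.1, Myt1l at 8.06 ± 3.54 and St18 at 7.31 ± 4.08. Myt1 was therefore the highest of the 3 family members in these cells, though it was chosen for its large rises in these libraries. In iPou4f3 and iG+P Dox cells Myt1 was also the highest of the family, at 33.55 and 31.59. In iG+A Dox cells St18 was above it, at 3.56 against 2.70. In iGfi1 Dox cells both St18 (3.73) and Myt1l (1.47) were above Myt1 (0.46). In iGPA Dox cells Miat was at 2552 ± 359.5, Myt1 at 418 ± 16.7, Scrt1 at 12.03 ± 0.42, Myt1l at 3.37 ± 0.11, St18 at 3.03 ± 1.33 and Scrt2 at 0.75 ± 0.64. In iAtoh1 Dox cells Miat was at 54.8 ± 42.4, and St18, at 6.36 ± 4.91, and Myt1, at 4.59 ± 2.80, differed by less than their spread.

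The 7 cassettes allow 9 comparisons of lines that differ by 1 factor, in which the Dox effect of the smaller cassette is subtracted from that of the larger. They share libraries with each other. Adding Pou4f3 to Atoh1 (iP+A minus iAtoh1) raised the Dox effect of 2 of the 4 tested genes, against 2.09% of all genes. The difference was 4.47 for Scrt1 (SE 0.78, adjusted p = 0.00159) and 3.49 for Myt1l (SE 0.98, adjusted p = 0.0436), while it was 2.85 for Scrt2 (SE 0.98, adjusted p = 0.108) and -0.04 for St18 (adjusted p = 0.986). The description for Miat and Myt1 is a difference of 6.12 (SE 0.85) and 8.40 (SE 0.61). Adding Pou4f3 to Gfi1 gave 6.34 for Miat and 4.33 for Myt1, and adding it to iG+A gave 2.40 and 6.55. The call of Myt1l did not stand on leaving out single libraries, with adjusted p-values of 0.0798 and 0.113 without the first or second iAtoh1 No Dox library, 0.166 without the second iP+A No Dox library, 0.167 without the second iAtoh1 Dox library, and 0.18 or 0.0598 without the first or second iP+A Dox library.

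Adding Atoh1 to Pou4f3 (iP+A minus iPou4f3) raised the Dox effect of 3 of the 4, against 1.44% of all genes. The difference was 4.89 for Scrt1 (SE 0.78, adjusted p = 0.00112), 4.33 for Scrt2 (SE 0.98, adjusted p = 0.0182) and 3.67 for Myt1l (SE 0.98, adjusted p = 0.0485). For Myt1l the fit with a replicate block gave an adjusted p of 0.0509, and leaving out any of 7 of the 8 libraries involved gave 0.0606 to 0.232. Scrt2 lost its call without the first iP+A No Dox library (0.0745), the second iPou4f3 No Dox library (0.0831), the first iPou4f3 Dox library (0.0811) or the first iP+A Dox library (0.113), whereas Scrt1 kept it in each case. For Miat and Myt1 the difference was 1.86 (SE 0.85) and 4.39 (SE 0.61). The Pou4f3 transcript itself was at 5037 ± 486 normalized counts (SD, n = 2) in iPou4f3 and 11873 ± 1421 in iP+A, and its part in these differences was not tested.

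Adding Gfi1 to the pair (iGPA minus iP+A) lowered the Dox effect of 2 of the 4 tested genes past the threshold, against 2.84% of all genes. For Scrt2 the difference was -4.19 (SE 0.98, adjusted p = 0.00597), and this held on leaving out any single library. For Scrt1 it was -2.27 (SE 0.78, adjusted p = 0.0499), with an adjusted p of 0.0687 under a replicate block and of 0.0625 to 0.158 on leaving out each of the 8 libraries in turn. Myt1l had a difference of -1.44 (adjusted p = 0.333) and St18 of -1.04 (adjusted p = 0.400). Myt1 had -2.07 (SE 0.61) and Miat 0.62 (SE 0.85), given as descriptions. With Atoh1 alone as the start (iG+A minus iAtoh1), Gfi1 gave 4.35 (SE 0.85) for Miat and -0.21 (SE 0.61) for Myt1. With Pou4f3 alone as the start (iG+P minus iPou4f3), Gfi1 gave 0.51 (SE 0.85) for Miat and -0.48 (SE 0.61) for Myt1, both smaller than their SE. Pou4f3 transcripts were at 18737 ± 1621 in iG+P and 14076 ± 1469.9 in iGPA. The summed level of the general neuronal markers was also lower in iGPA Dox (6379 to 6573) than in iP+A Dox (16965 to 22846). Its part in the differences of Scrt1 and Scrt2 was not tested.

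In the other 6 of the 9 comparisons 0 of the 4 tested genes passed the limma threshold. Of all genes, 6.87% did so for iG+A minus iAtoh1, 8.54% for iG+A minus iGfi1, 1.85% for iG+P minus iGfi1, 7.63% for iG+P minus iPou4f3, 2.20% for iGPA minus iG+A and 5.90% for iGPA minus iG+P. At an unadjusted p under 0.05 there was 1 gene each in iG+A minus iAtoh1 (Scrt1, 1.68), in iG+P minus iPou4f3 (Scrt1, 1.74) and in iGPA minus iG+A (Myt1l, 2.50), and 0 in the remaining ones. The first of these was past the threshold without the first iAtoh1 Dox library (2.65, adjusted p = 0.0244).

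**Figure D3:**
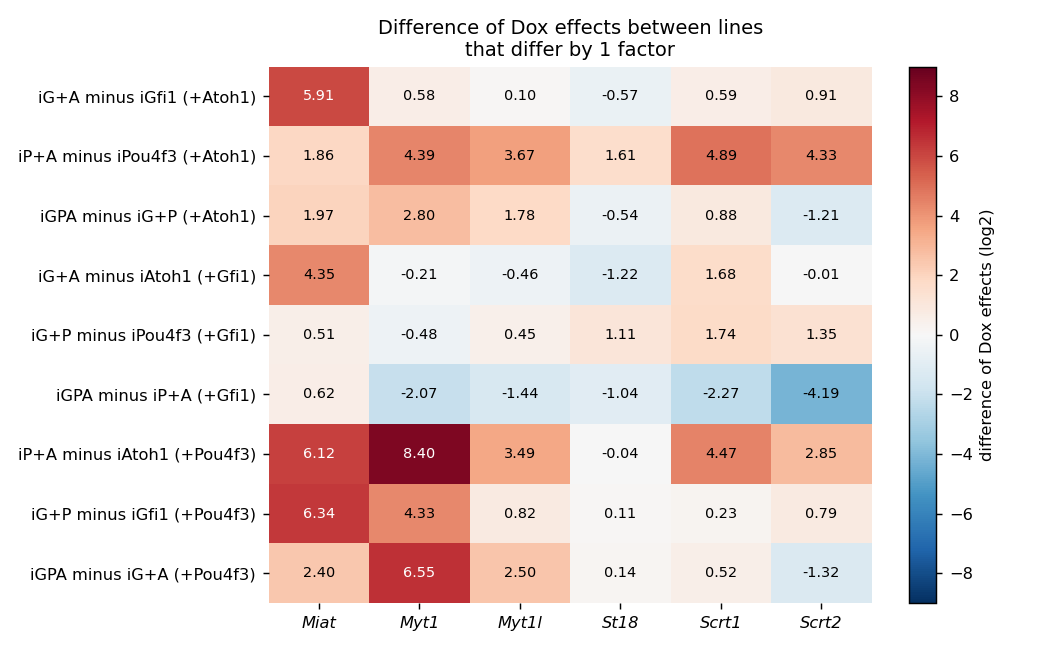
Difference of Dox effects (log2, colour and printed value) for the 6 genes (columns) in the 9 comparisons of lines that differ by the factor in brackets (rows). In the row for adding Gfi1 to iP+A the values run from -4.19 for Scrt2 to 0.62 for Miat, and Miat and Myt1 have values of 2.40 to 8.40 in the 3 rows that add Pou4f3.

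In normalized counts, the gain of a combination (Dox mean minus No Dox mean) can be set beside the sum of the gains of its single lines. For Miat the gain in iP+A was 17615 against a sum of 2528, in iGPA 22332 against 2572, in iG+P 6238 against 2148 and in iG+A 1964 against 467.5. All 4 combinations were above their sum. For Myt1 it was 4964 against 251 in iP+A and 2878 against 253 in iGPA, but 213 against 229.99 in iG+P and 12.4 against 24.8 in iG+A. Scrt1 gained 172 in iP+A where the single lines summed to 1.96, and Scrt2 109.5 where they summed to 2.41. In iGPA Scrt1 gained 39.4 against 11.1, but Scrt2 had -1.27 against 2.99, and in iG+P Scrt1 gained 6.17 against 8.01. Myt1l gained 64.8 in iP+A against 0.93. St18 gained 29.1 against 22.7 in iP+A and 3.87 against 32.2 in iGPA. These are sums of means of 2 libraries and were not tested. With Dox, Pou4f3 transcripts were at 5037 ± 486 normalized counts in iPou4f3. They were at 11873 ± 1421 in iP+A, 18737 ± 1621 in iG+P and 14076 ± 1469.9 in iGPA. The part of this difference in the gains was not tested.

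For each of the 6, the genes with the most similar pattern were found by Pearson correlation of log2 levels over the 28 libraries, which share lines, clones, the Dox treatment and sorting. For Miat they were Adam11 (0.98), Rtn4rl2 (0.98), Dagla (0.96), Fam78b (0.96) and Olfm2 (0.96). For Myt1 they were Elavl4 (0.96), Rtn4rl2 (0.95), Gh (0.94), Cpe (0.94) and Mapk8ip1 (0.94), so that Rtn4rl2, which encodes a Nogo receptor homolog, stood in both lists. For Scrt1 they were Scg3 (0.92), Scg5 (0.89), Elavl3 (0.89), Sez6l2 (0.88) and Chrnb2 (0.88), and for Scrt2 Celf3 (0.84), Syt4 (0.83), Rag1 (0.83), Maneal (0.82) and Zfyve19 (0.81). Chrnb2, a subunit of nicotinic acetylcholine receptors, also led the list of Myt1l at 0.79, followed by A930011G23Rik, Pcsk2, Cmya5 and Ctnna2 at 0.72 to 0.76. For St18 they were Noxo1 at 0.79 and Pex5l, Tob2, Fam53c and Nek11 at 0.72 to 0.74. Within the 14 Dox libraries alone, Rtn4rl2 and Adam11 were again among the 5 genes most like Miat, Elavl4 for Myt1, Scg3 for Scrt1 and Celf3 for Scrt2, while for Myt1l 0 of the 5 were shared. By Spearman correlation over the 28 libraries, 2 of the 5 were shared for Miat (Adam11 and Rtn4rl2), 2 for St18, 1 each for Myt1 (Rtn4rl2), Myt1l and Scrt1, and 0 for Scrt2, so the sets depend on the measure.

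The pathways around these genes were described with 6 lists. Of 8 corepressor partners of the Myt1 family (Sin3, histone deacetylase and CoREST genes), 1 rose in iGPA, where 8.65% of all genes rose, and 0 in iAtoh1 or iP+A (limma, with 3 and 4 higher and 2 and 1 lower at an unadjusted p under 0.05). It was Rcor2, a CoREST gene expressed in the nervous system, at 17330 ± 989.6 normalized counts with Dox against 3904 ± 487.5 (2.15 on the log2 scale, SE 0.16, adjusted p = 9.09e-09). The median log2 fold change of the list was 0.15 in iGPA, 0.23 in iP+A and 0.12 in iAtoh1, beside 0.006, -0.03 and -0.01 over all genes. Rcor2 had values of 1.41 in iP+A and 1.47 in iAtoh1, under the fold limit.

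Of 18 Notch pathway genes, 10 rose in iGPA, 9 in iAtoh1 and 7 in iP+A, where 8.65%, 2.89% and 4.70% of all genes rose. By limma 0 fell in these lines, and 2, 1 and 1 were lower at an unadjusted p under 0.05. Dll3, a Notch ligand that acts within the cell, was at 6770 ± 923.7 against 56.3 in iGPA (6.94, SE 0.68, adjusted p = 1.87e-07) and at 4937 ± 225 against 204 in iAtoh1 (4.83, adjusted p = 5.78e-05). Hes5, a Notch effector and repressor of neuronal genes, was at 223 ± 62.6 against 2.24 in iGPA (6.20, adjusted p = 1.66e-05). Heyl, a related repressor, was at 486 ± 12.7 against 18.0 in iAtoh1 (4.69, adjusted p = 2.71e-06). The list's median was 2.38 in iGPA, 0.84 in iP+A and 1.54 in iAtoh1. In iG+A 11 of the 18 rose (7.35% of all genes, list median 2.72). In iG+P 5 rose (5.16% of all genes) and Hey2 fell, and in iPou4f3 0 passed the limma threshold (with 0 higher and 2 lower at an unadjusted p under 0.05), with list medians of 0.57 and -0.30. Hey2 was named after its values were seen. Hes1, named after its values were seen as a known target of Myt1, had log2 fold changes of 0.24 in iGPA, -0.20 in iP+A and 0.68 in iAtoh1.

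Of 16 neuronal zinc finger and Rest axis genes, 10 rose in iGPA, 10 in iP+A and 7 in iAtoh1, where 8.65%, 4.70% and 2.89% of all genes rose. The medians were 2.28, 3.34 and 1.29, beside 0.006, -0.03 and -0.01 over all genes. In iPou4f3 and iG+P, where Miat and Myt1 were also high, 5 of the 16 rose in each, against 1.47% and 5.16% of all genes. By limma 0 fell in iGPA, iP+A and iAtoh1, and 1 was lower in iGPA at an unadjusted p under 0.05. Nhlh1, a bHLH gene of newborn neurons, was at 3322 ± 153 against 4.53 in iGPA (9.29, SE 0.51, adjusted p = 1.61e-10) and at 256.5 ± 10.7 against 6.85 in iAtoh1 (5.14, adjusted p = 1.61e-06). Insm1, the SNAG zinc finger gene whose first bases are shown above, was at 5920 ± 139 against 11.4 in iGPA (8.93, SE 0.49, adjusted p = 1.57e-10). Nhlh2, the paralog of Nhlh1, was at 129 ± 27.7 against 4.16 in iAtoh1 (4.73, adjusted p = 3.88e-05). Rest, the repressor of neuronal genes, was looked at after its values were seen and was not past the threshold, with log2 fold changes of -0.44 in iGPA, -0.29 in iP+A and 0.17 in iAtoh1.

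**Figure D4:**
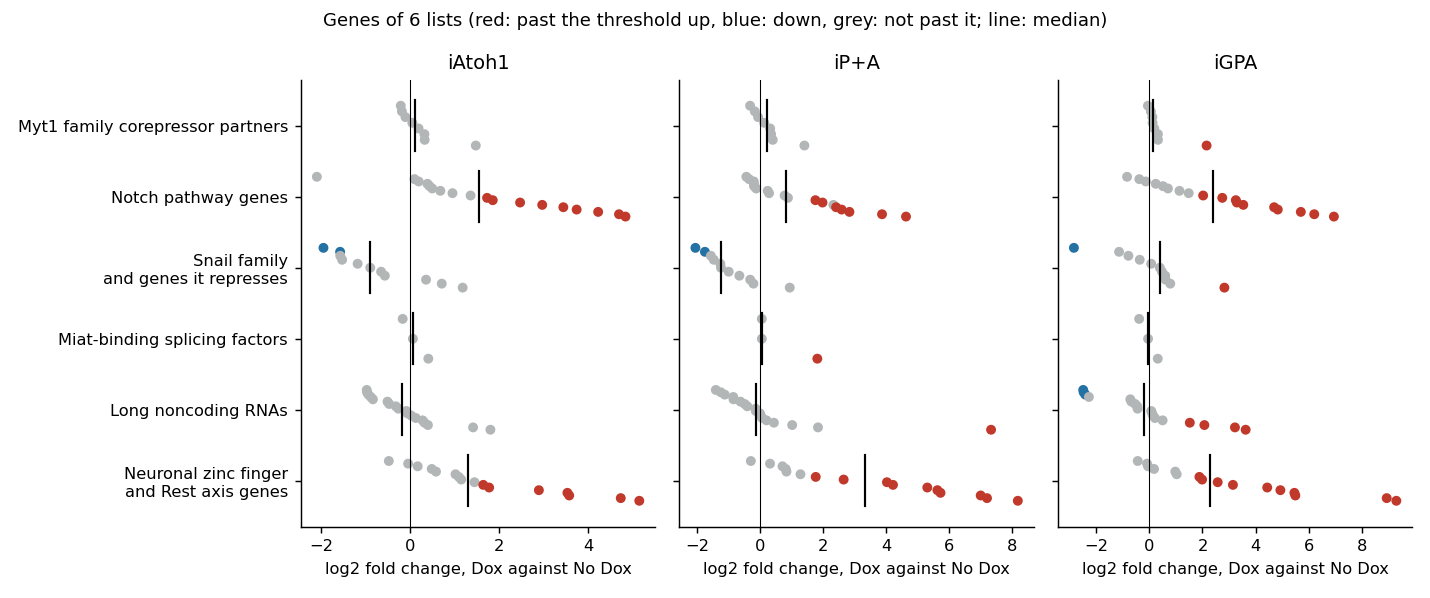
Log2 fold change of Dox against No Dox (x axis) for the genes of the 6 lists (rows) in iAtoh1, iP+A and iGPA, with red for genes past the threshold upward, blue for downward, grey for the rest and a line at the median. Rises dominate in the Notch list and the neuronal zinc finger list, whose medians are 2.38 and 2.28 in iGPA.

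Of 11 genes of the Snail family and its targets, 2 fell in iAtoh1, 2 in iP+A and 1 in iGPA, where 1 rose. Over all genes 2.52%, 2.58% and 5.31% fell in these lines, and 8.65% rose in iGPA. The claudin Cldn3, a tight junction gene, moved in opposite directions, from 147 ± 45.8 to 36.83 ± 8.33 in iAtoh1 (-1.95, SE 0.58, adjusted p = 0.0205) and from 40.8 ± 29.95 to 256.5 ± 49.4 in iGPA (2.82, SE 0.58, adjusted p = 0.000585). Cldn7 fell from 679.8 ± 473.7 to 198.5 ± 20.02 in iAtoh1 (-1.57, SE 0.55, adjusted p = 0.0469). Over all 6 lists the falls in iAtoh1 numbered 2, which became 4 with a replicate block. Snai2, a repressor of epithelial genes that is expressed in mesenchyme, fell from 4178 ± 322 to 587 ± 92.4 in iGPA (-2.84, SE 0.44, adjusted p = 3.73e-05), while the 6 of 6 fibroblast and mesoderm markers fell in the same line. In iP+A the falls were of Snai3 (-2.04) and Cldn4 (-1.74), named after their values were seen. The list's median was 0.40 in iGPA, -1.23 in iP+A and -0.90 in iAtoh1.

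Miat was set beside 18 other long noncoding RNAs that were tested, of 20 listed. In iAtoh1 0 of the 18 passed the limma threshold (with 2 higher and 6 lower at an unadjusted p under 0.05), in iP+A 1 rose, against 4.70% of all genes, and in iGPA 4 rose and 3 fell, against 8.65% and 5.31%. The median was -0.18, -0.13 and -0.19, beside -0.01, -0.03 and 0.006 over all genes. Six3os1 rose by 3.22 in iGPA (SE 0.81, adjusted p = 0.00324, 77.9 ± 17.3 against 8.91 ± 7.53) and was the 1 that rose in iP+A, by 7.32. It is antisense to Six3, and pseudo-alignment without strand does not separate the 2 transcripts where they overlap. Pantr1, a neighbour of Pou3f3, rose in iGPA from under 1 normalized count to 17.01 ± 2.25 (adjusted p = 0.0247). Neat1 and Snhg11, the other two, rose by 2.07 and 1.52 and were named after their values were seen. Meg3 fell from 73300 ± 4606 to 13060 ± 217 (-2.49, SE 0.22, adjusted p = 4.44e-08) and Rian from 30220 ± 1734 to 5458 ± 426 (-2.47, SE 0.20, adjusted p = 2.11e-08). Both belong to the imprinted Dlk1-Dio3 cluster, as does Mirg, the third that fell (-2.41).

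The list of splicing factors reported to bind Miat held 4 genes, of which 3 were tested. Celf3, a neuronal RNA-binding protein, rose in iP+A (1.82, where 4.70% of all genes rose), as the 1 called there and named after its values were seen, and by limma 0 were called in iGPA and iAtoh1, with 1 and 0 at an unadjusted p under 0.05. Sf1, the factor that binds the repeat printed above, had log2 fold changes of -0.05, 0.06 and 0.06 in iGPA, iP+A and iAtoh1.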

How the data were processed

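RNA was measured in 28 libraries of day 6 EB cells (KAPA mRNA HyperPrep from 1 µg of total RNA, Illumina HiSeq). Per the methods of the study and the submitters' processing notes, the authors trimmed reads with cutadapt, pseudo-aligned them with Kallisto to mm9 knownGene transcripts, summed them per gene with tximport and scaled the counts by DESeq2. The deposited values are log2(normalized count + 1) made by the authors, and were turned back into normalized counts here. Between 72.4% and 79.4% of low values lay within 0.05 of whole multiples of a library's step, so whole reads were not recovered and tests on counts were not run.

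Genes were named from RefSeq (19314 of 19421) and placed by GENCODE M1. The 16837 genes that reached 10 normalized counts in 2 or more libraries were fitted over all 14 groups by limma 3.58.1 (R 4.3.3), using a variance trend and 14 residual degrees of freedom, and adjusted by Benjamini-Hochberg within each comparison. The members, the 6 pathway lists and the 8 marker lists were chosen with earlier results of these data known, and Miat and Myt1 were chosen for their rises. Besides the members and induced genes, the text names for each list up to 2 largest rises and falls in iGPA and iAtoh1, and the 5 genes most like each member. The series record states that replicates are different clones of a line. Whether equal numbers in Dox and No Dox libraries mean the same clone is not stated. Deviations of same-numbered Dox and No Dox libraries correlated weakly, by 0.103 to 0.246 in all 7 lines. The fit reported does not use the replicate number, so its p-values ignore any such pairing. An alternative fit with the number as a block has 7 residual degrees of freedom. Alternatives changed the pseudocount, filter, scaling, block, samples fitted, control, trend and fold limit, and left out each library in turn.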

Additional observations from a re-analysis of the deposited data

Results flagged for a closer look

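In 7 cases the Dox effect on a tested gene differed between a pair of lines that differ by 1 factor, by the limma test of the difference itself. In each of them the effect in iP+A was the larger one. Under the replicate block 2 of the 7, Myt1l against iPou4f3 (adjusted p = 0.0509) and Scrt1 against iGPA (adjusted p = 0.0687), missed the threshold. Under other alternatives so did Myt1l against iAtoh1 (adjusted p of 0.0529 without the trend and 0.141 with only the groups compared, and on leaving out any of 6 of the 8 libraries), Scrt1 against iAtoh1 (0.0552 with only the groups compared) and Scrt2 against iPou4f3 (on leaving out any of 4 of the 8 libraries). Scrt1 against iPou4f3 and Scrt2 against iGPA passed it under every alternative run. For Scrt1 it exceeded that in iAtoh1 by 4.47 on the log2 scale (SE 0.78, adjusted p = 0.00159) and that in iPou4f3 by 4.89 (SE 0.78, adjusted p = 0.00112). For Myt1l it did so by 3.49 (SE 0.98, adjusted p = 0.0436) and 3.67 (SE 0.98, adjusted p = 0.0485), and for Scrt2 it exceeded that in iPou4f3 by 4.33 (SE 0.98, adjusted p = 0.0182). The Dox libraries of iP+A were above both Dox libraries of the other line in each of these 5. This adds no support, since the 5 were picked by a test on the same libraries. The remaining differences are negative, since they subtract the effect in iP+A from that in iGPA, with -4.19 for Scrt2 (SE 0.98, adjusted p = 0.00597) and -2.27 for Scrt1 (SE 0.78, adjusted p = 0.0499). Scrt2 in iGPA Dox cells was at 4.10 and 1.01 normalized counts, against 147 and 88.5 in iP+A Dox cells.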

How the results depend on the processing

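Of the values for the 4 tested genes under the alternatives, 972 kept their direction and side of the threshold, 46 lost a call, 8 gained one and 62 changed sign, of which 0 were called in either fit. The number of these genes called in iG+A was 1 and became 0 with a pseudocount of 5 or a fit of only the groups compared, and in iG+P it was 0 and became 1 with a pseudocount of 0.5 or a fold limit of 1. In iGPA it was 2 and became 1 with a filter of 50, which drops Myt1l. For iP+A minus iAtoh1 it was 2 and became 1 with a filter of 50 or no variance trend, and 0 with only the groups compared, where Scrt1 had an adjusted p of 0.0552, while a pseudocount of 5 added Scrt2 (2.65, adjusted p = 0.00775). For iP+A minus iPou4f3 the call of Myt1l was lost with a pseudocount of 0.5, no filter, 75th percentile scaling, the replicate block, only the groups compared or no trend (adjusted p of 0.0508 to 0.109). For iGPA minus iP+A it was 2 and became 1 with a pseudocount of 0.5, no filter, a filter of 50, 75th percentile scaling or the replicate block, each by Scrt1 (adjusted p of 0.0502 to 0.0687). For iGPA minus iG+P it was 0 and became 1 (Scrt1) with all 14 untreated libraries as the control, which also gave a difference of 3.63 for Scrt2 in iP+A minus iAtoh1 (adjusted p = 0.000583). On leaving out each library in turn, with the lone library of its group taken to vary like the others, the number was 0 to 1 in iAtoh1, 0 to 1 in iG+A, 1 to 2 in iGPA, 0 to 1 for iG+A minus iAtoh1, 1 to 2 for iP+A minus iAtoh1, 1 to 2 for iP+A minus iPou4f3 (main value 3) and 1 for iGPA minus iP+A. Over all genes, the fit of only the groups compared called 117 up and 18 down in iPou4f3, where the fit of all groups called 350 in either direction, and 711 up and 192 down in iP+A, where it called 792 and 435. Over the 6 lists, 2 falls in iAtoh1 became 1 with no filter, 75th percentile scaling, only the groups compared or no trend, 0 with all untreated libraries as the control, 5 with quantile normalization and 4 with the replicate block, and were 0 to 5 on leaving out single libraries. With the block, Myt1l in iP+A minus iPou4f3 had an adjusted p of 0.0509 and Scrt1 in iGPA minus iP+A one of 0.0687, and it changed no other call of the 4 tested genes. The values that changed sign had log2 fold changes of -0.54 to 1.11 in the fit reported. With all 14 untreated libraries as the control, Myt1l was 0.43 in iGfi1, 0.03 in iG+A, -0.04 in iG+P, -0.41 for iG+A minus iGfi1, -0.47 for iG+P minus iGfi1 and 0 for iG+P minus iPou4f3. St18 was -0.17 in iG+P, 0.32 for iP+A minus iAtoh1, -0.83 for iG+P minus iGfi1, -0.05 for iG+P minus iPou4f3, -0.29 for iGPA minus iG+A and 0.5 for iGPA minus iG+P, and Scrt1 -0.55 for iG+P minus iGfi1. With quantile normalization Myt1l was 0.01 in iPou4f3, and St18 was -0.03 in iG+A, -0.06 in iGPA and -0.03 for iGPA minus iG+A. With a pseudocount of 5 Scrt1 was -0.01 for iG+P minus iGfi1 and Scrt2 was 0.03 in iGfi1. For iG+A minus iAtoh1 Scrt2 was 0.05 with a pseudocount of 0.5 and 0 with 75th percentile scaling, which also gave 0 in iGfi1. On leaving out single libraries, Myt1l ran from -0.47 to 0.63 in iAtoh1, -1.33 to 0.37 in iGfi1, -0.46 to 0.24 in iPou4f3, -0.97 to 0.19 in iG+A, -0.11 to 0.79 in iG+P, -1.04 to 0.12 for iG+A minus iAtoh1, -0.76 to 0.94 for iG+A minus iGfi1 and -0.03 to 1.67 for iG+P minus iGfi1. St18 ran from -0.99 to 0.32 in iPou4f3, -0.24 to 0.43 in iG+A, -0.2 to 0.67 in iGPA, -0.9 to 0.81 for iP+A minus iAtoh1, -0.21 to 0.42 for iG+P minus iGfi1 and -0.3 to 0.58 for iGPA minus iG+A. Scrt1 ran from -0.82 to 1.12 in iAtoh1, -0.83 to 0.27 in iPou4f3 and -0.31 to 0.77 for iG+P minus iGfi1. Scrt2 ran from -0.77 to 0.72 in iGfi1, -0.04 to 1.8 in iG+A, -1.12 to 0.23 in iGPA, -0.93 to 0.91 for iG+A minus iAtoh1 and -0.01 to 1.83 for iG+A minus iGfi1. Among the descriptions, the Dox effect on Myt1 in iGfi1 was -0.49 with all untreated libraries as the control, and that in iG+A minus iAtoh1 ran from -0.85 to 0.43 on leaving out single libraries. Myt1 in both lines was at or under 45.4 normalized counts. The causes were not tested. Precision is limited by having 2 clones per group and by low levels, with Myt1l under 50 normalized counts in 27 of the 28 libraries and St18, Scrt1 and Scrt2 in 26.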
